A study of Mus musculus with 24 samples.

Results

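Blood of irradiated mice with and without Parp1 was compared at 6 Gy, using the 5 arrays titled as knockout 6 Gy and the 5 titled as wild-type 6 Gy out of 24 arrays in the series. All 10 came from male 129S/J mice, 1 mouse per array, that were either Parp1-/- or Wild Type by their genotype label. The mice were exposed to 6 Gy of X rays and killed 24 h later, when whole blood was drawn from the heart into an RNA stabiliser. Globin RNA was removed from the extracted RNA before labelling with Cy3. By the labels 6 Gy is the median lethal dose for Parp1-/- mice and 8.8 Gy that for the wild type, and the comparison asks how the genotypes differ at the same dose. A sham pair (knockout 0 Gy and wild-type 0 Gy, 5 arrays each) served to ask whether a genotype difference at 6 Gy departed from that in unirradiated blood. Neither the construction of the null allele nor the animals' age is given in the labels.

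PARP1 is a nuclear enzyme that binds DNA breaks and uses NAD to attach chains of ADP-ribose to itself and to nearby proteins, which draws repair factors to the break. Mice without it are radiosensitive, above all in tissues that renew quickly. In blood, lymphocytes die within hours of irradiation, p53 targets and interferon-stimulated genes are induced in the surviving leukocytes, and the loss of marrow precursors shows in reticulocytes before it shows in mature red cells. Platelets and reticulocytes have no nucleus but carry RNA, so that a whole-blood profile mixes transcripts of nucleated and anucleate cells. In such bulk samples, fewer cells of a type and less RNA per cell cannot be told apart.

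The Parp1 probe checks the genotype labels, and the Itga2b probe measured the largest difference among called genes detected on all 10 arrays, and both are shown as the array files give them, 5′ to 3′, with coordinates in mm9. The Parp1 probe lies at chr1:182530341-182530639 on the plus strand, where its 60 bases are spread over 299 bases of genome, so that it crosses an intron. The Itga2b probe lies at chr11:102319453-102319661 on the minus strand and is spread over 209 bases. Neither has a part set in capitals.
Parp1: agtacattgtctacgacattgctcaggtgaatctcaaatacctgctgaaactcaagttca
Itga2b: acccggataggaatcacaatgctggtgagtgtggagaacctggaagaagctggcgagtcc

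Levels are given as log2 signal minus the array's 75th percentile, and a probe counts as detected where the extraction program marked it well above background. Parp1 was -1.27, -2.33, -1.88, -1.52 and -2.06 on wild-type 6 Gy replicates 1 to 5. On the arrays labelled knockout 6 Gy it was -1.67, -3.45, -5.01, -3.82 and -4.67 on replicates 1 to 5. Replicate 1 thus lay within the wild-type range and was the only knockout array on which Parp1 was detected, whereas replicates 2 to 5 lay below every wild-type array. Parp1 was detected on only 3 of the 5 wild-type 6 Gy arrays, so that a probe not detected does not by itself mark a knockout here. At 0 Gy it was detected on 5 of 5 wild-type and 0 of 5 knockout arrays. Parp1 missed the detection filter of the comparison. In the fit without that filter its difference was -1.91 ± 0.51 (SE; limma, adjusted p = 0.0480), and -2.42 without the array labelled knockout 6 Gy replicate 1 (adjusted p = 0.0132).

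The same array stood apart in a second way. Over 10078 genes its log2 values differed from those of the array labelled wild-type 8.8 Gy replicate 2 with an SD of 0.210, against 0.328 for the next closest of 276 pairs of arrays and a median of 0.982. Knockout 6 Gy replicates 2 to 4 differed from all other arrays in the spike-in controls, RNAs added to each labelling. Their brightest spike-in probe read 534 to 772 intensity units on these 3 arrays and 318598 to 537893 on the other 21. Among the 5 knockout 6 Gy arrays, only replicate 5 combined Parp1 below the wild-type range with a bright spike-in, and counts are given below with and without these arrays. Scan day 3 held the 5 wild-type arrays and knockout replicates 1 to 3, whereas knockout replicate 4 fell on day 4 and replicate 5 on day 1. Detected probes made up 47.9% ± 3.90 (SD, n = 5) of all probes in the knockout and 49.7% ± 5.48 in the wild type (two-sided exact permutation p = 0.524, adjusted over 3 array measures 0.595), with array 75th percentiles of 7.01 ± 0.25 and 6.92 ± 0.28 on the log2 scale (p = 0.595, adjusted p = 0.595 by the same exact test).

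A small set of genes was called different between the genotypes at 6 Gy. Among them were the red-cell ankyrin Ank1 and the platelet integrin Itga2b on the higher side and the B-cell chaperone Mzb1 on the lower side. Of 12422 genes tested, 56 (0.451%) were higher and 77 (0.62%) lower in the knockout (limma on the 5 group means of all 24 arrays, Benjamini-Hochberg adjusted p under 0.05), together 1.07% of the genes tested, and 2948 had an unadjusted p under 0.05. The median difference of all genes tested was -0.04 on the log2 scale. Without the array labelled knockout 6 Gy replicate 1, 110 (0.886%) were higher and 438 (3.53%) lower, together 4.41%, and all 133 genes called with it were among them. That balance turned to 4506 higher and 311 lower with median centring and to 115 higher and 60 lower in the authors' deposited table, and 5 genes, all lower, were called with scan day as a block. The groups did not overlap for 46 of the 56 higher and 46 of the 77 lower genes, against 645 of all 12422 genes. Where a called gene had a further detected probe, 16 of 18 such probes, from 17 genes, had the same sign.

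The number of calls moved with single arrays in both groups. Leaving out 1 knockout array gave 548 calls without replicate 1, 23 without replicate 2, 23 without replicate 3, 12 without replicate 4 and 39 without replicate 5. Leaving out 1 wild-type array gave 10, 0, 36, 258 and 199 calls for replicates 1 to 5. The 133 genes kept their sign in each of these fits. They were called on these same arrays, so a kept sign was favoured in advance, here and in the fits of subsets below. With knockout 6 Gy replicates 2 to 4 as the only arrays of their group, 82 genes were higher and 877 lower, and 127 of the 133 were still called. With replicate 5 alone, which has to borrow its spread from the other groups, 2 were higher and 33 lower, 7 of the 133 were still called, and the sign of all 133 was kept. Within scan day 3 and without the array labelled replicate 1 no gene was higher and 3 were lower in limma, with 2135 genes at an unadjusted p under 0.05. None of the 133 was still called there. The split into higher and lower also followed the scaling. It was 3651 to 172 with arrays centred on their median, where the median of all genes was 0.60, 223 to 146 after quantile normalization, 10 to 2 with normexp background correction and 299 to 71 in the authors' deposited table.

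**Figure D1:**
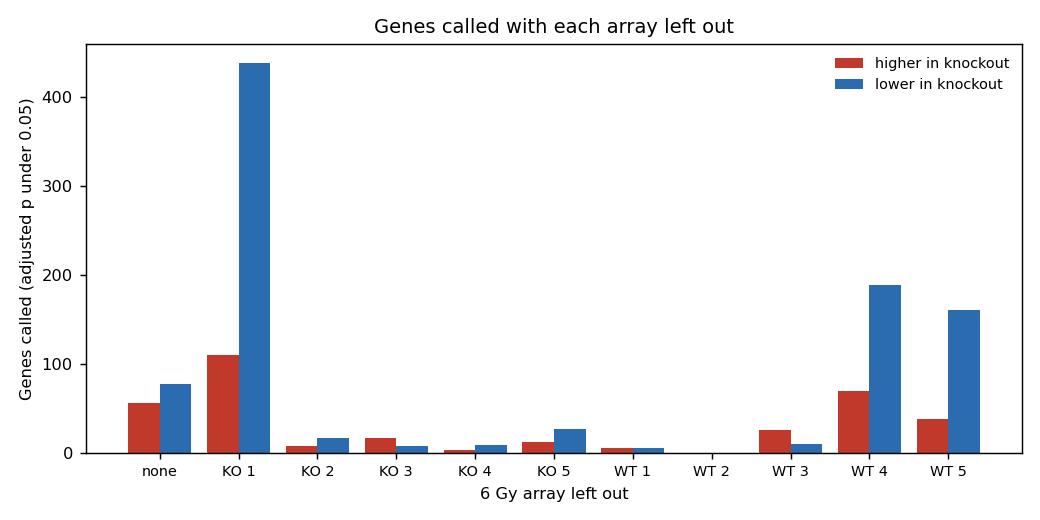
Number of genes called higher (red) or lower (blue) in the knockout at 6 Gy (adjusted p under 0.05, vertical axis) with no array left out and with each of the 10 arrays at 6 Gy left out in turn (horizontal axis). The bars reach 110 and 438 without the array labelled knockout 6 Gy replicate 1 and are at 0 without wild-type 6 Gy replicate 2.

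The largest fitted positive difference was that of Ank1, the ankyrin that ties the spectrin skeleton to the red-cell membrane. Its probe was detected on all 5 knockout arrays, at -0.73, -1.83, -0.55, -1.08 and -1.26 on replicates 1 to 5. It was detected on no wild-type array, with -3.65, -2.66, -4.17, -4.64 and -4.95 on replicates 1 to 5. The groups did not overlap. Ank1 was at least 2.36-fold higher in the knockout (adjusted p = 0.0355, limma). This bound sets the knockout mean against the higher of the wild-type signal and the dimmest detected signal on each wild-type array. It does not cover other background corrections. With normexp background correction the fitted difference was 0.745 (log2), smaller than the bound, and Ank1 was not called. With scan day as a block the difference was 2.98, and Ank1 was again not called. At 0 Gy, Ank1 was 0.11 ± 0.72 in the wild type and 1.33 ± 1.22 in the knockout (SD, n = 5 each), and both means at 6 Gy lay below the sham means. It was -1.48 ± 1.51 (SD, n = 4) in wild-type 8.8 Gy blood, nearer to the knockout at 6 Gy than to the wild type at 6 Gy.

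Itga2b, the alpha subunit of the platelet fibrinogen receptor, was 4.43, 5.39, 3.66, 5.22 and 5.30 on knockout replicates 1 to 5. It was 2.15, 2.58, 4.04, 3.37 and 1.09 on the wild-type replicates. Only wild-type replicate 3 reached into the knockout range, above knockout replicate 3. The difference was 2.15 ± 0.5 (SE, log2), or 4.44-fold (adjusted p = 0.0436), and 2.24 without the array labelled knockout 6 Gy replicate 1. Of the 10 fits that left out 1 array, Itga2b was called in 4 and Ank1 in 5. Mki67, the Ki-67 antigen of dividing cells, read 3.73, 3.29, 3.15, 3.82 and 3.24 in the knockout. The wild-type arrays read 1.47, 1.97, 1.61, 1.46 and 0.65, all below the lowest knockout array. Its difference of 2.02 ± 0.5 only just passed the threshold (adjusted p = 0.0498) and was lost in 9 of the 10 fits that left out 1 array. A second Mki67 probe, detected on 9 of the 10 arrays, gave a difference of 2.19.

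Ube2h, a ubiquitin-conjugating enzyme that is abundant in maturing red cells, was 2.0, 2.24, 0.98, 1.67 and 1.23 in the knockout. It was -0.61, -0.33, -0.05, 0.59 and -1.30 in the wild type. The difference of 1.96 ± 0.40 (adjusted p = 0.0355) held in 6 of the 10 fits that left out 1 array, and a second Ube2h probe gave 0.70. Ell2, a factor of transcription elongation, differed by 1.91 ± 0.41 (adjusted p = 0.0373). Casd1, which acetylates sialic acids, differed by 1.77 ± 0.31 (adjusted p = 0.0235) and was called in 9 of these 10 fits. The carboxypeptidase gene Cpe differed by 1.67 ± 0.37, while its 2 further probes gave 1.51 and -0.42. The splicing factor gene Rbfox2 and the dehydrogenase-like gene Hsdl1, each detected on 2 wild-type arrays, differed by 1.76 ± 0.36 and 1.68 ± 0.37. Aff4, a scaffold of the elongation complex that ELL2 joins, Pigg, an enzyme of membrane anchor synthesis, and Gab1, a docking protein of growth factor receptors, were detected on no wild-type array. They were at least 1.94-fold, 1.32-fold and 1.08-fold higher. With normexp background correction their fitted differences were 0.475, 0.341 and 0.332 (log2), smaller than the bound for Aff4 and Pigg.

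**Figure D2:**
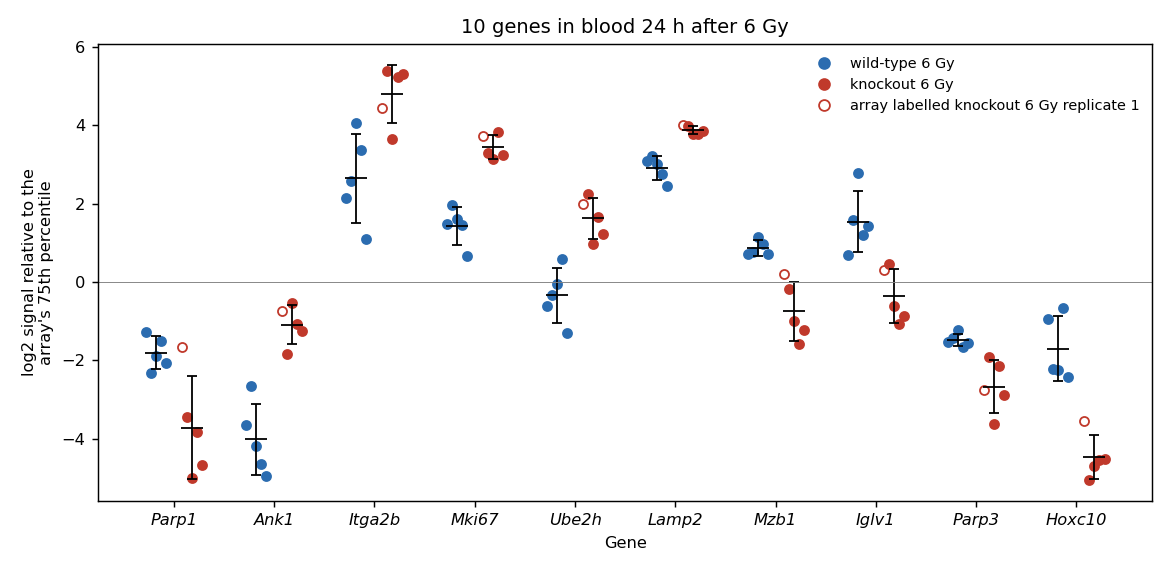
Log2 level relative to the array's 75th percentile (vertical axis) of 10 genes on each wild-type 6 Gy (blue) and knockout 6 Gy (red) array. The open circle marks the array labelled knockout 6 Gy replicate 1, and the bars give the mean and SD of 5 arrays. That array lies with the wild type for Parp1 and with the other knockout arrays for Ank1, Mki67 and Lamp2.

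Among higher genes with smaller differences, some were picked after their values were seen for what is known of them. Riok3, a kinase of late red-cell maturation, read 6.73, 6.96, 6.24, 6.37 and 6.04 in the knockout and 4.95, 5.31, 4.85, 5.17 and 4.25 in the wild type. Its difference was 1.56 ± 0.37 (adjusted p = 0.0454). Slc25a39, a mitochondrial carrier that heme synthesis depends on, differed by 1.47 ± 0.35, Ybx3, an RNA-binding protein of late erythroid cells, by 1.27 ± 0.31, and Psmf1, a regulator of the proteasome, by 1.46 ± 0.32. Lamp2, of the lysosome membrane, was 3.99, 3.98, 3.77, 3.79 and 3.86 in the knockout. The wild-type values were 3.09, 3.21, 3.02, 2.76 and 2.44, and the difference was 0.97 ± 0.20 (adjusted p = 0.0355). The coagulation genes F5 and Pros1 differed by 0.83 ± 0.20 and 1.0 ± 0.25. Nfe2l2, the regulator of antioxidant genes known as NRF2, and Bag3, a co-chaperone, differed by 0.80 ± 0.19 and 0.98 ± 0.24, and the membrane protein gene Itm2b by 0.72 ± 0.16. Adjusted p lay between 0.0373 and 0.0498 for the genes from Slc25a39 onward other than Lamp2. A second Lamp2 probe gave 0.62. Of the 10 fits that left out 1 array, Lamp2 was called in 5 and Riok3 in 2.

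The genes that were lower in the knockout were of another kind. Their median level over both groups was -1.97, against 0.94 for the higher genes and 0.25 for all genes tested. Of the 77, 18 were detected on no knockout array and 18 on all 10 arrays, whereas 39 of the 56 higher genes were detected on all 10. Of all genes tested, 9188 (74.0%) were detected on all 10. Probes detected on no array of the series, 9596 in number, had a mean level of -4.19, -4.63, -4.71, -5.25 and -4.23 on its arrays against -3.71, -3.54, -3.83, -4.23 and -4.30 on the wild-type arrays. That difference was -0.68 (two-sided exact permutation p = 0.0397, adjusted over 3 array measures 0.119). The part of this difference in the lower calls was not tested. Among genes detected on all 10 arrays, tested alone, 2 were higher and 3 lower.

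**Figure D3:**
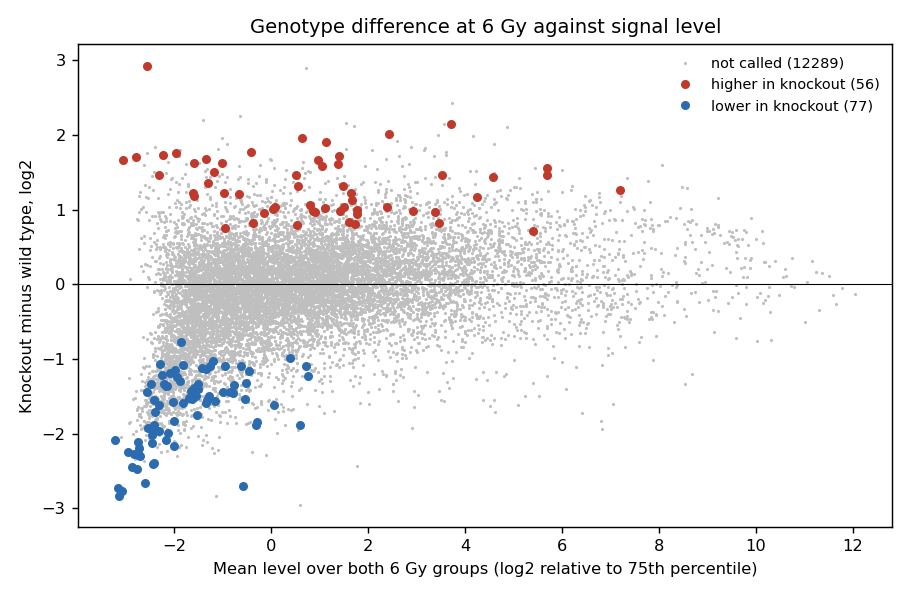
Knockout minus wild-type difference at 6 Gy (vertical axis, log2) against the mean level over both groups (horizontal axis, log2 relative to the 75th percentile) for 12422 genes. The 77 lower genes (blue) sit at the dim end, with a median level of -1.97, and the 56 higher genes (red) around a median of 0.94.

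Several of the 12 lower genes with the largest differences are known from tissues other than blood. Hoxc10, a homeobox gene of the hind body, was detected on 4 wild-type arrays, at -0.96, -2.23, -2.24, -0.66 and -2.42 on replicates 1 to 5. It was detected on no knockout array, where it read -3.54, -5.05, -4.70, -4.54 and -4.52, and was at least 2.22-fold lower (adjusted p = 0.0305, limma). Dnase1l3, a secreted nuclease that degrades DNA from dying cells and is made by macrophages and dendritic cells, was -2.24, -3.68, -4.65, -5.18 and -3.91 in the knockout and -0.73, -0.35, -0.72, -2.70 and -1.88 in the wild type. It was detected on no knockout array and at least 2.90-fold lower (adjusted p = 0.0263). The array labelled replicate 1 lay above wild-type replicate 4. The potassium channel subunit gene Kcng1 was at least 2.09-fold lower and the Wnt-pathway receptor gene Kremen2 at least 2.46-fold. For CK137956, Bpifb9b, Olfm2 and Wscd1 the bounds were 2.30-fold, 2.36-fold, 2.03-fold and 2.29-fold. With normexp background correction the genes given a bound here differed by -0.747 (Dnase1l3) to -0.527 (CK137956) on the log2 scale. Each of these differences was smaller in size than the gene's bound. Hs3st1, which sulfates heparan chains, was 0.27, -0.63, -3.01, -1.85 and -4.41 in the knockout and 0.91, 1.86, 1.27, 0.33 and -0.51 in the wild type, a difference of -2.70 ± 0.67 with overlapping groups (adjusted p = 0.0498). Hoxc10, Dnase1l3 and Hs3st1 were called in 5, 5 and 3 of the 10 fits that left out 1 array. Rsph6a, of the sperm tail, differed by -2.47 ± 0.51, Lce1m, of the skin envelope, by -2.40 ± 0.55, and Nol3, an inhibitor of apoptosis, by -2.28 ± 0.52. Rsph6a, Lce1m and Nol3 were each detected on only 1 knockout array, with knockout means of -4.00, -3.62 and -3.90. Their differences thus rest on signal that was mostly not detected in the knockout.

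Of the lower genes that belong to lymphoid cells, 3 were picked after their values were seen, and the first 2 of them were detected on all 10 arrays. Mzb1, a chaperone of antibody assembly in B cells and plasma cells, was 0.71, 0.77, 1.16, 0.97 and 0.71 on wild-type replicates 1 to 5. It was 0.21, -0.17, -0.99, -1.60 and -1.23 on knockout replicates 1 to 5, all below the wild type, with the array labelled replicate 1 the highest. The difference was -1.62 ± 0.28, or 3.07-fold lower (adjusted p = 0.0235), and -1.86 without that array (adjusted p = 0.00380), and it was called in 9 of the 10 fits that left out 1 array. Iglv1, a variable segment of the immunoglobulin lambda chain, was 0.69, 1.57, 2.79, 1.19 and 1.43 in the wild type. It was 0.32, 0.46, -0.62, -1.06 and -0.86 in the knockout, again without overlap, and differed by -1.89 ± 0.38 (adjusted p = 0.0355). Near-identical segments share this sequence, so the value may belong to several of them. Ly9, a lymphocyte receptor of the SLAM family detected on 4 knockout arrays, differed by -1.5 ± 0.32 (adjusted p = 0.0373), with -1.22 at a second probe. Of the 10 fits that left out 1 array, Iglv1 was called in 5 and Ly9 in 4.

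Among marker lists of blood cells, platelets and red cells had the most positive medians, with 1 member called in each. Of 27 platelet genes tested, 1 was higher (Itga2b) and 0 lower in the knockout, 26 had a positive difference and the median was 0.99. Of all 12422 genes tested, 0.451% were higher, 5861 had a positive difference and the median was -0.04. Gp5 and Gp1bb, subunits of the platelet receptor for von Willebrand factor, gave 1.45 ± 0.38 and 1.59 ± 0.43, and the platelet tubulin Tubb1 1.27 ± 0.34. These did not pass (adjusted p = 0.0563, 0.0584 and 0.0581). Without the array labelled knockout 6 Gy replicate 1, 3 platelet genes were higher, namely Itga2b, Gp5 (1.5, adjusted p = 0.0425) and Gp1bb (1.74, adjusted p = 0.0363). In that fit 0.886% of all genes tested were higher. The mean level of the list was 5.73, 6.20, 5.03, 5.72 and 5.97 on knockout replicates 1 to 5 and 4.98, 5.52, 5.62, 4.33 and 3.64 on the wild-type replicates. Of the knockout arrays 4 lay above all wild-type arrays, and wild-type replicates 4 and 5 were the lowest.

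Of 39 red-cell genes, 1 was higher (Ank1), 0 were lower and 34 had a positive difference. Beside them stand the same 0.451% and 5861 of 12422 for all genes. In sham blood the median was 0.72, and at 6 Gy it was 0.70. The membrane skeleton protein Epb41 gave 1.59 ± 0.45 and the mitochondrial iron importer Slc25a37 1.42 ± 0.43, neither past the threshold (adjusted p = 0.0654 and 0.0704). Further probes gave 0.39 and 1.31 for Epb41 and 0.74 for Slc25a37. The list's mean level was 3.06, 2.91, 2.60, 2.70 and 2.63 on knockout replicates 1 to 5 against 2.04, 2.61, 2.19, 2.0 and 1.69 on the wild-type replicates, where replicate 2 exceeded the lowest knockout array. Globin RNA was depleted in all samples, and the list holds no globin gene.

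Lymphocyte lists had negative medians by this scaling. Of 17 B-cell genes 15 had a negative difference, with a median of -1.01 and 0 called. Leaving out the array labelled knockout 6 Gy replicate 1 gave 3 lower genes, Pou2af1, Cxcr5 and Cd79a (median -1.03), the last named after its values were seen and from a probe that the files place on chromosome 12. In that fit 3.53% of all genes tested were lower. Pou2af1, the B-cell coactivator OBF-1, was -1.31, -1.12, -1.58, -2.12 and -3.37 in the knockout and -0.03, -1.10, -0.48, -0.36 and -0.51 in the wild type, a difference of -1.40 ± 0.38 (adjusted p = 0.0581, and 0.0347 without that array). Cxcr5, the receptor that guides B cells into follicles, gave -1.56 ± 0.48 (adjusted p = 0.0719, and 0.0480 without that array). The mean level of the B-cell list was -0.65, -0.60, -1.33, -1.34 and -1.62 in the knockout and -0.02, -0.75, -0.58, -0.31 and -0.32 in the wild type. The 3 lowest knockout arrays lay below all wild-type arrays, and the other 2 within their range. The B-cell median was -0.38 under median centring, -0.31 with normexp, -0.59 after quantile normalization and -0.52 for the 14 genes in the authors' deposited table. It was -0.49 with scan day as a block and -0.47 within scan day 3 without the array labelled replicate 1. With slide as a random block, and with the hepatocyte covariate described below, it was -0.90. Of the 17 genes 8 were detected on all 10 arrays.

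Of 27 T-cell genes 24 had a negative difference (median -0.39) and 0 were called. Without the array labelled knockout 6 Gy replicate 1, 1 of the 27 was lower, and 3.53% of all genes tested were. Thy1, a surface marker of T cells, was 1.34, 2.26, 0.94, 1.30 and 1.81 in the knockout and 2.67, 3.05, 2.71, 2.71 and 2.53 in the wild type, without overlap, and its difference of -1.20 ± 0.31 just missed the threshold (adjusted p = 0.0543). Cd8a gave -1.36 ± 0.41 (adjusted p = 0.0695, 0.0493 without that array) and the T-cell receptor subunit Cd3e -0.48 ± 0.30 (adjusted p = 0.347, 95% interval -1.09 to 0.14). The 13 NK and cytotoxic genes had a median of -0.43, with Il2rb, a subunit of the interleukin 2 and 15 receptors, at -1.13 ± 0.32 (adjusted p = 0.0636). The 9 MHC class II genes all had negative differences (median -0.59), with Ciita, their transactivator, at -0.95 ± 0.40 and the invariant chain Cd74 at -1.21 ± 0.53. No gene of these last 2 lists was called with all arrays. The sign of the T-cell, NK and MHC class II medians turned under median centring, to 0.24, 0.20 and 0.04, where the median of all genes was 0.60.

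Myeloid lists had medians of 0.43 for 27 neutrophil genes, -0.12 for 24 monocyte genes, -0.62 for 10 eosinophil genes and -0.66 for 5 basophil genes, with 0 members called. The neutrophil gelatinase Mmp9 gave 1.0 ± 0.38 (adjusted p = 0.121), the neutrophil surface gene Ly6g -0.13 ± 0.27 and the monocyte receptor Cd300e -1.72 ± 0.5 (adjusted p = 0.0663). Fcer1a, the IgE receptor of basophils, was detected on 1 of the 10 arrays and was not tested. Siglecf, an eosinophil lectin, was already lower in the knockout at 0 Gy (-2.72, adjusted p = 0.0323). At 6 Gy it was 0.59, -2.70, -2.28, -2.13 and -1.09 in the knockout and 0.89, 1.15, -0.37, 0.95 and 0.99 in the wild type. The array labelled replicate 1 lay with the wild type and replicates 2 to 5 below it. The difference was -2.24 ± 0.59 (adjusted p = 0.0543) and -2.77 without that array (adjusted p = 0.0197). Under median centring the eosinophil and monocyte medians were 0.02 and 0.52.

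**Figure D4:**
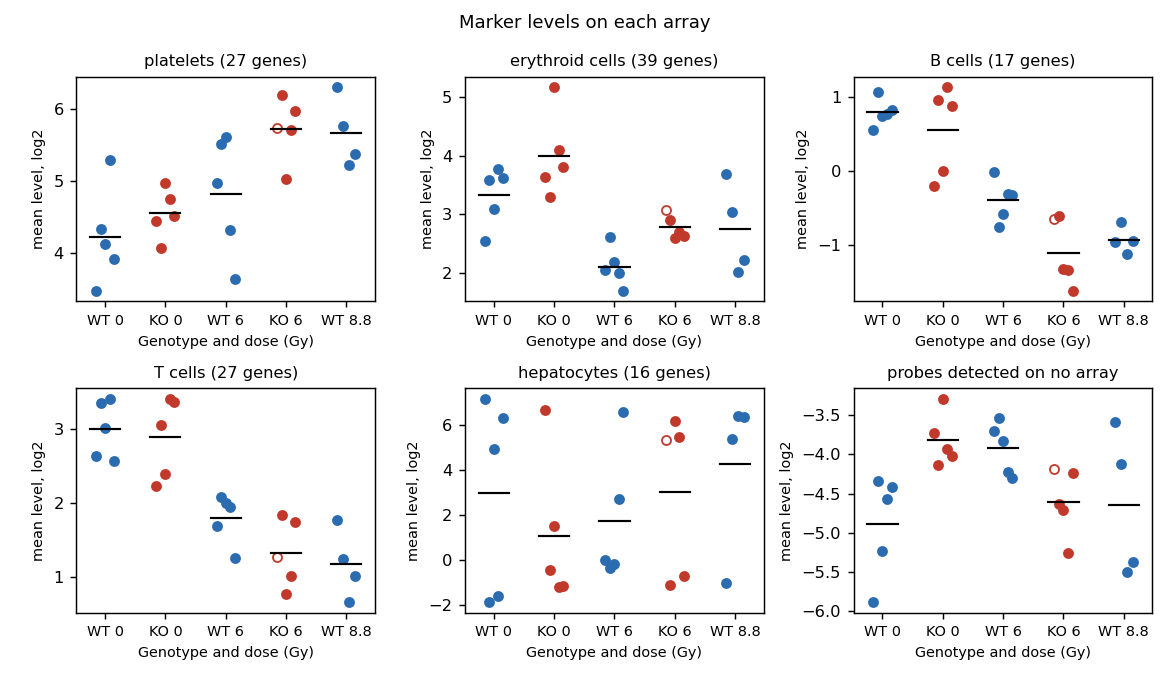
Mean log2 level of 5 marker lists and of the probes detected on no array (vertical axes, relative to the 75th percentile) on each array of the 5 groups (horizontal axes, genotype and dose in Gy). Lines give group means and the open circle the array labelled knockout 6 Gy replicate 1. At 6 Gy the red-cell list runs from 2.60 to 3.06 in knockout and from 1.69 to 2.61 in wild-type blood, and the hepatocyte list from -1.11 to 6.18 and from -0.39 to 6.57.

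Liver RNA differed between arrays within both groups. The mean level of 16 hepatocyte genes was 5.34, -1.11, 6.18, 5.5 and -0.74 on knockout replicates 1 to 5 and -0.03, -0.39, -0.19, 2.73 and 6.57 on wild-type replicates 1 to 5. Alb, which encodes albumin, was detected on 3 knockout and 5 wild-type arrays and ranged from -3.39 to 8.18 in the knockout and from -1.65 to 7.78 in the wild type. Of the 16 genes 0 were called (median 1.16). With this score as a covariate, chosen with earlier results known, 846 genes were higher and 640 lower, and all 133 genes called without it were called in the same direction. With the covariate 18 of the 27 platelet and 10 of the 39 red-cell genes were higher and none of either list was lower. Neither list had a called gene with scan day as a block, with normexp background correction, or within scan day 3 without the array labelled replicate 1, where their medians were 0.95, 0.96 and 0.89 for platelets and 0.71, 0.59 and 0.71 for red cells. Heart muscle genes, 6 tested, were high on wild-type replicate 1 (2.88) and knockout replicate 3 (4.70) and between -2.20 and 0.02 on the other 8 arrays. Medians were -0.67 for 4 skeletal muscle genes, -0.31 for 4 lung genes and -0.17 for 9 genes of Kupffer cells and resident macrophages, with 0 called in each.

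No p53 target and no interferon-response gene passed the test at 6 Gy by the 75th percentile scaling. With median centring 20 of 34 p53 targets and 7 of 38 interferon-response genes were called higher. So were 3651 of all 12422 genes, whose median was then 0.60. By the 75th percentile scaling 0 of 34 p53 targets tested were called, with a median of 0.17. Of them 4 had an unadjusted p under 0.05 in limma, against 2948 of all 12422 genes. Cdkn1a, the cell cycle inhibitor p21, was 1.62, 1.73, 1.23, 2.04 and 1.35 in the knockout and 2.51, 2.14, 1.97, 1.94 and 2.73 in the wild type, with overlapping groups. The difference was -0.66 ± 0.30 (95% interval -1.28 to -0.04, adjusted p = 0.180). In sham blood Cdkn1a was -2.57 ± 0.27 in the knockout and -1.90 ± 0.84 in the wild type (SD, n = 5 each), means that lay below every array at 6 Gy. Apaf1, of the apoptosome, gave 0.89 ± 0.30 (95% interval 0.26 to 1.51), Pidd1, a death domain protein, -0.75 ± 0.34 (-1.45 to -0.04), and Trp53 itself -1.10 ± 0.35 (-1.82 to -0.38). Trp53 passed without the array labelled knockout 6 Gy replicate 1 (-1.31, adjusted p = 0.0390), and was detected on 1 knockout and 4 wild-type arrays.

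Of 38 interferon-response genes 0 were called and 5 had an unadjusted p under 0.05 in limma, against 2948 of all 12422 genes. Of their differences 17 were positive and 21 negative. The median of -0.05 turned to 0.59 under median centring, to 0.01 with normexp and to 0.03 in the authors' deposited table. The list's mean level ran from 1.68 to 2.58 over the knockout and from 1.28 to 2.87 over the wild-type arrays. Ifit2, an antiviral protein that binds RNA, gave 0.99 ± 0.30 (95% interval 0.36 to 1.61) and the interferon-gamma GTPase Igtp 0.59 ± 0.27 (0.04 to 1.14). The nucleic acid sensor Zbp1 gave -1.17 ± 0.48 (-2.17 to -0.17) and the antiviral GTPase Mx2 -0.90 ± 0.37 (-1.68 to -0.13), so the 4 members with the smallest p pointed both ways. These intervals include differences of more than 1 log2 unit, and the p-values do not show that the genotypes responded alike. Adjusted p of these genes lay between 0.0719 and 0.179.

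Of the PARP family and the enzymes that remove ADP-ribose, 15 genes were tested without Parp1 itself, which missed the filter. Of all genes tested 0.62% were lower, and of these 15, 1 was lower. This was Parp3, which like PARP1 is switched on by DNA strand breaks but adds single ADP-ribose units. Parp3 was -1.55, -1.43, -1.24, -1.65 and -1.56 in the wild type and -2.77, -1.92, -3.62, -2.15 and -2.88 in the knockout, without overlap and with the array labelled replicate 1 among the other knockout arrays. Its difference was -1.18 ± 0.28 (adjusted p = 0.0451), and -1.16 without that array, and it was called in 4 of the 10 fits that left out 1 array. Parp3 was not called with median centring, quantile normalization, normexp background correction or scan day as a block. It stayed called with slide as a random block and with the hepatocyte covariate. It was detected on 2 knockout arrays only. In sham blood it was -1.5 ± 0.41 in the wild type and -1.23 ± 0.46 in the knockout. Tiparp, a mono-ADP-ribosyltransferase induced by dioxin, gave 0.89 ± 0.30, Parp6, another transferase of single units, -0.32 ± 0.18, and Adprhl2, a hydrolase that removes ADP-ribose from serine, -0.21 ± 0.19, none past the threshold (adjusted p = 0.0897, 0.295 and 0.551), and the last 2 turned to 0.32 and 0.43 under median centring. Second probes gave 0.19 for Tiparp and -0.88 for Parp6. The median of the list was 0.13.

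Of 18 genes of NAD metabolism 0 were called (median 0.12), with the NAD-dependent deacylases Sirt6 at -0.69 ± 0.20 and Sirt3 at 0.63 ± 0.26. Sirt6 passed without the array labelled knockout 6 Gy replicate 1 (adjusted p = 0.0467). Base excision and single-strand break repair, the pathway PARP1 serves, had 18 genes tested, 0 called and a median of -0.29, which turned to 0.35 under median centring. The glycosylase genes Nthl1, Tdg and Mutyh gave -0.87 ± 0.26, -1.19 ± 0.37 and -1.0 ± 0.36, of which Tdg passed without that array (-1.43, adjusted p = 0.0367). In double-strand break repair and checkpoint, 0 of 17 were called (median -0.17, 0.47 under median centring). The checkpoint kinase Chek1 was -1.64, -2.45, -4.73, -3.59 and -1.80 in the knockout and -1.17, -0.43, -0.98, -1.71 and -2.0 in the wild type, lowest on the 3 arrays with the dim spike-in. Its difference was -1.58 ± 0.46 (adjusted p = 0.0663, 0.0301 without the array labelled replicate 1), and -0.54 with replicate 5 alone. Bard1, the partner of BRCA1, gave -1.16 ± 0.38, with opposite signs at 2 further probes (0.63 and 0.36).

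Of 19 cell cycle genes 1 was higher, Mki67, and of all genes tested 0.451% were higher. The list median was 0.19 at 6 Gy and 0.39 at 0 Gy. Of the 19 differences at 6 Gy 14 were positive and 5 negative. Cenpa, the histone of centromeres, gave 1.06 ± 0.31 and the spindle gene Nusap1 1.12 ± 0.41 (adjusted p = 0.0663 and 0.112). Tyms, which makes thymidylate for DNA synthesis, gave -1.86 ± 0.53 (adjusted p = 0.0654) and passed in the other direction from Mki67 without the array labelled knockout 6 Gy replicate 1 (-2.13, adjusted p = 0.0349).

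Housekeeping groups had 0 called members. Medians were -0.28 for 41 ribosomal protein genes, 0.20 for 41 genes of oxidative phosphorylation, 0.02 for 27 proteasome genes, 0.29 for 28 heat shock and redox genes and -0.09 for 16 genes of NF-kappaB and inflammatory cytokines. The ribosomal and NF-kappaB medians turned to 0.36 and 0.55 under median centring. In the redox group the peroxidase Prdx6 gave 0.99 ± 0.28, the glutathione synthesis gene Gclm 1.09 ± 0.39 and catalase (Cat) 0.99 ± 0.37, with adjusted p of 0.0654, 0.101 and 0.117. Further probes gave 0.57 and 0.79 for Prdx6 and 1.45 for Cat. Nfe2l2, which controls such genes, was called and belongs to no list.

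**Figure D5:**
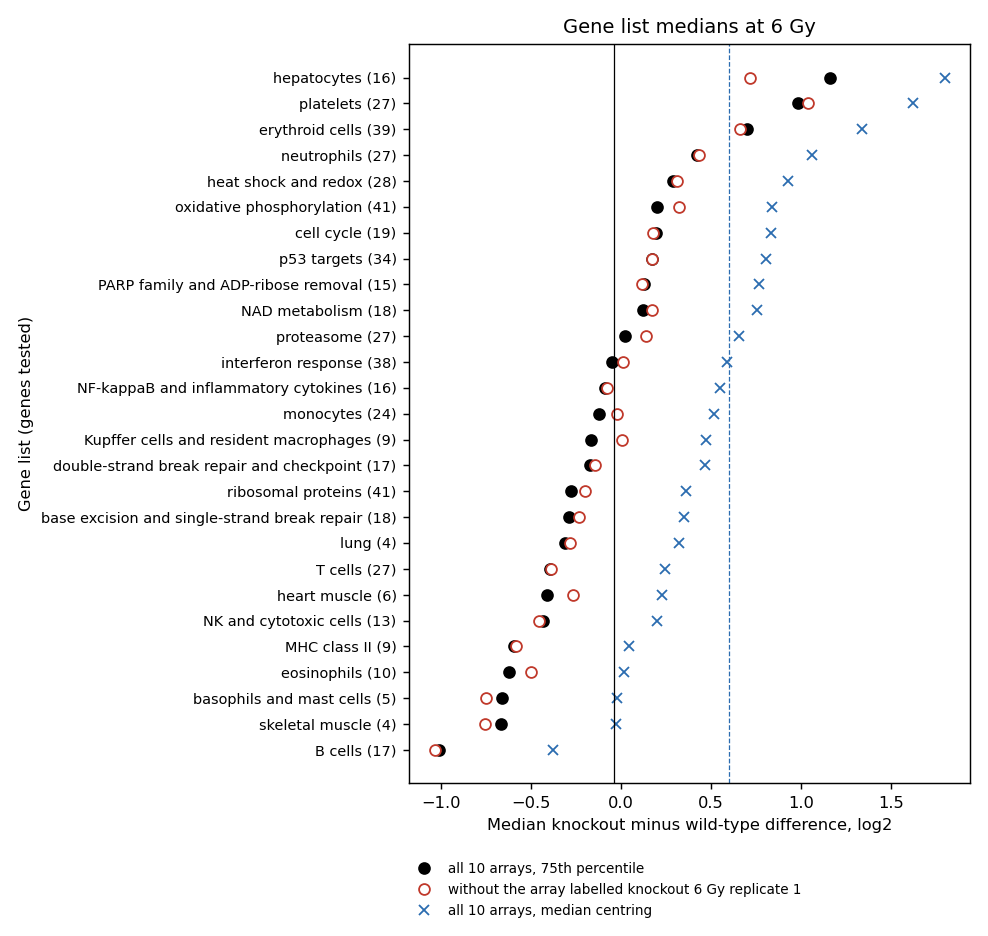
Median knockout minus wild-type difference at 6 Gy (horizontal axis, log2) of 27 gene lists (vertical axis, with the genes tested in each), over all 10 arrays (black), without the array labelled knockout 6 Gy replicate 1 (open red) and with arrays centred on their median (blue crosses). The solid and dashed lines mark the medians of all genes, -0.04 and 0.60. Platelets (0.99) and red cells (0.70) lie to the right and B cells (-1.01) to the left under the 75th percentile scaling.

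The genotype difference at 6 Gy was also set against that in sham blood. There 78 genes (0.628%) were higher and 4 (0.0322%) lower in the knockout, together 0.66% of the genes tested. A single gene was called at both doses, which is 0.752% of the calls at 6 Gy and 1.22% of those at 0 Gy. It was the olfactory receptor gene Olfr1347, named after its values were seen, and it pointed in opposite directions (-1.02 at 6 Gy and 1.14 at 0 Gy). In the test of the difference between both doses, 132 genes (1.06%) were higher and 712 (5.73%) lower, together 6.79%. With median centring the balance turned to 3470 higher and 432 lower, and with slide as a random block 90 genes were called, 20 higher and 70 lower. Of the genes called at 6 Gy, 24 of 56 higher and 52 of 77 lower ones passed that test with the same sign, and both tests share the 10 arrays at 6 Gy.

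At 0 Gy list medians were 0.29 for platelets, 0.72 for red cells and 0.46 for neutrophils, against 0.99, 0.70 and 0.43 at 6 Gy. For B cells, T cells and MHC class II they were -0.49, -0.16 and -0.60, against -1.01, -0.39 and -0.59. The red-cell, neutrophil and MHC class II medians were thus about as large in unirradiated blood. None of the 27 platelet and 39 red-cell genes passed the test of the difference. For Itga2b and Ube2h it gave 1.19 and 1.22 (adjusted p = 0.293 and 0.178, limma), with knockout minus wild-type differences of 0.97 and 0.75 at 0 Gy that were not called. Mzb1 and Iglv1 gave -1.07 and -1.46 (adjusted p = 0.0961 and 0.0908). It passed for Casd1 (1.92, adjusted p = 0.0269), Lamp2 (1.11, adjusted p = 0.0328), Nfe2l2 (0.94, adjusted p = 0.0429), Bag3 (1.24, adjusted p = 0.0372) and Parp3 (-1.46, adjusted p = 0.0371). For these, the sham difference lay between -0.26 and 0.27. Sham groups of both genotypes were scanned on different days from each other, so that scan day and genotype cannot be told apart at 0 Gy.

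The share of genes called ran from 0.391% on chromosome 4 to 2.22% on chromosome 13. Within 20 Mb of Parp1 on chromosome 1, 4 of 179 genes (2.23%) were called, against 1.07% of all genes. They were named after their values were seen, as Cdc42bpa, a kinase of the cell skeleton 0.435 Mb away with a difference of 1.62, Ly9 at 9.01 Mb, the zinc exporter Slc30a1 at 11.2 Mb (0.82) and F5 at 16.4 Mb.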

How the data were processed

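Scanner files of 24 one-colour arrays were used, with per-spot intensity that the authors extracted with Agilent Feature Extraction 11.5.1, per the file headers. The deposited intensity is background-subtracted processed signal. The authors' deposited table holds log2 values of 10170 probes and entered as an alternative. Each of its columns differed from the scanner file's log2 signal by a nearly constant offset per array (SD over probes 0.0035 to 0.072), and the rule that set the offset is unknown. Its column medians for replicates in order were 7.83, 7.70, 8.06, 7.88, 7.86 (knockout 6 Gy), 7.75, 7.86, 7.76, 7.65, 7.70 (wild-type 6 Gy), 7.71, 7.85, 8.04, 7.97 (wild-type 8.8 Gy), 7.94, 7.68, 7.73, 7.66, 7.80 (wild-type 0 Gy) and 8.09, 7.66, 8.01, 7.69, 7.63 (knockout 0 Gy). The number of arrays limits the precision.

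Here control spots were left out, log2 signal was centred on each array's 75th percentile and spots of a probe were averaged. Of 39429 probes, 27597 were named by accession through RefSeq, 5665 by the file's own name and 6167 were unnamed. The brightest probe stood for each gene, kept where 4 or more arrays of either group detected it. Group means of all 24 arrays were fitted with limma 3.58.1 in R 4.3.3 and p-values adjusted by Benjamini-Hochberg at 0.05. Array measures used exact permutation tests (scipy 1.17.1). Slide, scan day, scaling, background, filter, array weights, left-out arrays and a hepatocyte covariate were alternatives. The fits on knockout 6 Gy replicate 5 alone, on replicates 2 to 4 alone, and all alternatives to the fit without replicate 1 were chosen after seeing the data. Named genes were Parp1, the 12 largest called differences in each direction that were also called without the array labelled knockout 6 Gy replicate 1 (unnamed clones left out), up to 4 members per list with the smallest p, and defining markers of cell types. Some genes that the rule names are not reported here, and genes outside it are said to be so. The comparison and gene lists were chosen with earlier results of these data known. In simulated data for this comparison, over 12359 genes, 27% of changes of 1 log2 unit and 72% of 2 units were recovered, and 9 unchanged genes were called.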

Additional observations from a re-analysis of the deposited data

Results flagged for a closer look

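In 11 of 256 groups of arrays, over the genes and lists named, 1 array lay far from the others of its group, where chance gives about 1 in 20. The wild-type 6 Gy values were those of Casd1 on replicate 5 (-2.41), Pigg on replicate 2 (-4.31), Gab1 on replicate 5 (-5.01), Nthl1 on replicate 4 (-1.90), Cd27 on replicate 5 (-0.27), Siglecf on replicate 3 (-0.37) and Ly6g on replicate 1 (-0.0517). In the knockout at 6 Gy they were Pigg on replicate 2 (-1.25) and Kcng1 on the array labelled replicate 1 (-3.38). The heart muscle list stood out on knockout replicate 3 (4.70) and on wild-type replicate 1 (2.88), the 2 highest of the 10 arrays at 6 Gy.

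Most named genes were chosen for a large difference or a small p at 6 Gy. A larger share of them than of all genes was thus favoured in a test that contains that difference. In limma the genotype difference at 6 Gy departed from that at 0 Gy for 25 of the 96 named genes tested, against 6.79% of all genes (log2, 6 Gy minus 0 Gy). It was more positive at 6 Gy for Casd1 (1.92), Aff4 (2.19), Pigg (1.34), Hsdl1 (1.86), Apaf1 (1.53), Nfe2l2 (0.94), Bag3 (1.24) and Lamp2 (1.11). It was more negative for Parp3 (-1.46), Tdg (-1.91), Chek1 (-2.66), Bard1 (-2.14), Relb (-1.87), Tyms (-3.02) and Cd27 (-2.35). It was also more negative for Hs3st1 (-3.78), Rsph6a (-3.53), Lce1m (-2.94) and Nol3 (-2.64), and for Hoxc10 (-4.04), Kcng1 (-4.23), Dnase1l3 (-4.31), CK137956 (-3.55), Bpifb9b (-2.55) and Wscd1 (-2.69). For these last 6, and for Aff4 and Pigg, 1 group at 6 Gy was not well above background on any array, so the values are fitted ones and only the direction is measured.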

How the results depend on the processing

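The count of 133 genes ran from 0 (without wild-type 6 Gy replicate 2, with 2499 genes at an unadjusted p under 0.05 in limma) to 548 when 1 array was left out. It was 15 on the 10 arrays alone, 1 with scan day as a block, 0 within scan day 3 (2018 at an unadjusted p under 0.05) and 3 there without the array labelled knockout 6 Gy replicate 1. It was 30 with slide as a fixed and 629 (345 higher, 284 lower) as a random block. It was 3823 with median centring, 369 after quantile normalization, 12 with normexp, 617 with no filter (85 higher, 532 lower), 5 among genes detected on all 10 arrays, 1112 with array weights, 1486 with the hepatocyte covariate and 370 in the authors' deposited table. With knockout replicate 5 alone it was 35, and with replicates 2 to 4 alone 959. With the replicate number as a block it was 0 (2008 at an unadjusted p under 0.05 in limma), and 0 without number 1 (1439). Deviations of same-numbered arrays correlated at -0.19, 0.09, -0.54, 0.45 and -0.71, so the arrays share only a number. Without the array labelled knockout 6 Gy replicate 1 the count of 548 ran from 4 to 959 when a further array was left out. It was 63 on the 9 arrays alone, 5 with scan day and 5 with slide as fixed blocks, 4817 with median centring, 9 with normexp, 1945 with no filter, 7 among genes detected on all arrays, 1944 with array weights, 1757 with the hepatocyte covariate and 175 in the authors' table. The count of 844 in the test of the difference between doses was 3902 with median centring and 90 with slide as a random block. The cause of these changes was not tested, beyond the fewer genes or arrays that some settings hold. The 133 genes kept their sign in the settings of the fit of all arrays in which they were measured. These settings reuse the arrays on which the genes were called, so a kept sign was favoured in advance. Of the 548, 545 kept it with median centring, and 228 of the 229 measured did in the authors' table.

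Named genes that turned sign had not been called in the fit of all arrays. Median centring gave 0.32 for Parp6, 0.43 for Adprhl2, 0.16 for Cd3e and 0.51 for Ly6g. With knockout replicate 5 alone, values were 0.14 for Relb, 0.48 for Prg2, -1.23 for Apoh, 0.61 for Cd3e, 0.20 for Ly6g and -3.75 for Alb. Ly6g ran from -0.207 to 0.0634 when 1 array was left out (0.0634 without wild-type 6 Gy replicate 1), and was 0.0726 with the replicate block without number 1 and 0.0601 after quantile normalization, and Alb -0.41 with slide as a fixed block and -0.12 with the hepatocyte covariate. The difference in the share of detected probes was -1.80 percentage points, and ran from -3.47 to 0.22 when 1 array was left out (0.22 without wild-type 6 Gy replicate 3). Over all named genes and settings, 1859 values stayed on their side of the threshold in the same direction, 166 passed it, 568 fell short of it and 15 turned.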
